A study of Mus musculus with 12 samples.

Results

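The stefin A genes are a tandem family of small cystatin-domain genes on mouse chromosome 16, and 6 of them, Stfa1, Stfa2, Stfa2l1, Stfa3, Cstdc4 and Cstdc5, were described here in the spleens of 12 mice. They were chosen by symbol, and the choice was made with their levels in these same mice known, so the group levels below are a description and no support is drawn from them. Of the 6 genes, 5 had a row among the 18221 genes of the expression tables, and Stfa1 was not analysed here for expression. All 5 were among the 12671 genes that reached 1 RPKM (read number scaled to transcript length and library size) in at least 3 mice. Stfa2 and Stfa3 reached it through the 3 mice given busulfan alone and 1 other mouse each, so those genes had to differ between groups to be tested.

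Stefins, also called type 1 cystatins, are small proteins that lack a signal peptide, stay inside the cell, and block papain-family cysteine proteases such as cathepsins B, H, L and S by inserting a wedge of loops into the active-site cleft. The stefin A locus was duplicated repeatedly in the mouse, and the mouse copies are known for expression in neutrophils and their bone marrow precursors, and stefin A is also a protein of stratified epithelia such as skin.

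Spleen mRNA was sequenced from male ICR mice, an outbred stock, with 3 mice in each of 4 groups. The question of the study was whether gut microbiota transfer changes a spleen exposed to busulfan, an alkylating drug used before haematopoietic stem cell transplantation. Con-sa mice received saline and no busulfan. B-sa mice received a single injection of busulfan at 40 mg/kg and oral saline. B+Con-FMT mice received the same busulfan injection and an oral transfer (FMT) of small intestine content from donors given water by gavage. B+A10-FMT mice received busulfan and content from donors that had been given alginate oligosaccharide, a seaweed-derived carbohydrate, at 10 mg/kg for 3 weeks. Mice were 3 weeks old at the start, transfers lasted 2 weeks, and spleens were taken at 8 weeks of age. Donor content was pooled within each donor group. The paper states that the animal experiments were repeated, and whether the 3 sequenced mice of an FMT group shared 1 inoculum is not given.

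Genes of the spleen's own cells were present in each mouse. The summed RPKM of 5 B-cell genes was 1311 to 1901, that of the 4 T-cell genes in the tables was 149 to 243, and that of 7 red pulp macrophage genes was 754 to 1298. Genes of neighbouring organs varied, with 6 pancreatic acinar genes summing to 239 to 6995 RPKM and 4 kidney genes to 75.5 to 117 RPKM in Con-sa and 0.83 to 62.1 RPKM in the other 9 mice. The adult beta-globin gene Hbb-bs was at 30.5, 17.3 and 9.20 RPKM in the B-sa mice and at 20290 to 45902 RPKM in Con-sa. Hbb-bt, the other adult beta-globin gene, was at 11.7 to 16.4 RPKM in B-sa and at 4650 to 10095 RPKM in Con-sa. The alpha-globin gene Hba-a1 was not lower, at 120170 to 144299 RPKM in B-sa and 102909 to 106905 RPKM in Con-sa. The cause of the beta-globin difference was not tested. Hbb-bs was also low, at 36.4 RPKM, in B+Con-FMT mouse 1, whose summed stefin A level was 9.64 RPKM, inside the range of Con-sa. Compared to Con-sa, 4 of 5 B-cell genes and both kidney genes tested fell in B-sa, 3 of 9 erythroid genes rose and 2 fell, and no T-cell, red pulp macrophage or acinar gene was called (limma, called at an adjusted p under 0.05, as were 14.5% of all genes). The part of these differences in the results below was not tested.

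In GRCm38 the 6 genes spanned 299 kb, from 36156811 to 36455392 on chromosome 16, and each had 3 exons. Stfa2l1 (positions 36156811 to 36161948), Cstdc4 (36184212 to 36188111) and Stfa1 (36277148 to 36285371) lay on the plus strand. Cstdc5 (36359382 to 36367570), Stfa2 (36403946 to 36408363) and Stfa3 (36450537 to 36455392) lay on the minus strand. Between and beside them stood Csta1, Csta2, Csta3, Cstdc3 and Cstdc6, genes of the same family.

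The coding sequences show how close the copies are, which bears on how reads are divided among them. Among the 15 pairs, identity of the coding sequences (GENCODE M21 transcripts) ranged from 73.1% to 97.9%, with a median of 79.3%. The closest pairs were Stfa1 with Cstdc5 (97.9%) and Stfa2 with Stfa2l1 (96.4%), and the nearest relative of Cstdc4 was Csta2 (96.9%). Identity to Cstb, the single-copy stefin B gene on chromosome 10, was 52.1% to 61.7%. Below is the stretch in which the copies differed least, with capitals marking each base that differs from Cstdc5. Positions count from 1 at the A of the start codon, and the stretch covers 54 to 113 in Cstdc5, Stfa1 and Cstdc4 and 72 to 131 in the 3 others.
Cstdc5: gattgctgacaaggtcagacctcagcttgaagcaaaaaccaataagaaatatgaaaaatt
Stfa1: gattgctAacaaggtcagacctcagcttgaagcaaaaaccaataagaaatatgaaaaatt
Stfa2: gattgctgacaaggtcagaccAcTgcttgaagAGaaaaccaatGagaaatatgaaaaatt
Stfa2l1: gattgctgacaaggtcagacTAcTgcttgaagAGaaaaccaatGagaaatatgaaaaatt
Stfa3: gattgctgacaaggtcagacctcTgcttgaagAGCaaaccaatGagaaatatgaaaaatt
Cstdc4: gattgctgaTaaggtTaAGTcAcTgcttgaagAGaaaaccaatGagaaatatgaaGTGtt

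In this stretch Stfa1 differed from Cstdc5 at 1 base, Stfa2 and Stfa3 at 5, Stfa2l1 at 6 and Cstdc4 at 13. The stretch in which the copies differed most lies further into the coding sequence, at 179 to 238 in Cstdc5, Stfa1 and Cstdc4 and at 197 to 256 in the others. There Stfa1 was identical to Cstdc5, while Stfa2 and Stfa2l1 each differed from it at 22 bases, Cstdc4 at 16 and Stfa3 at 14.
Cstdc5: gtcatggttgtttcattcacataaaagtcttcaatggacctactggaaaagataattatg
Stfa1: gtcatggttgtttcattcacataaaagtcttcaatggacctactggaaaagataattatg
Stfa2: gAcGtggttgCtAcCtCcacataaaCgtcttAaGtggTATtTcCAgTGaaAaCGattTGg
Stfa2l1: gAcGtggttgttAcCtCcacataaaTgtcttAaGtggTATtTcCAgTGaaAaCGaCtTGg
Stfa3: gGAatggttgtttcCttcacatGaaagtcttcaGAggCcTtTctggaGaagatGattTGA
Cstdc4: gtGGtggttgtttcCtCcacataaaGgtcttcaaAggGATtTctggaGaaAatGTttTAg

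**Figure D1:**
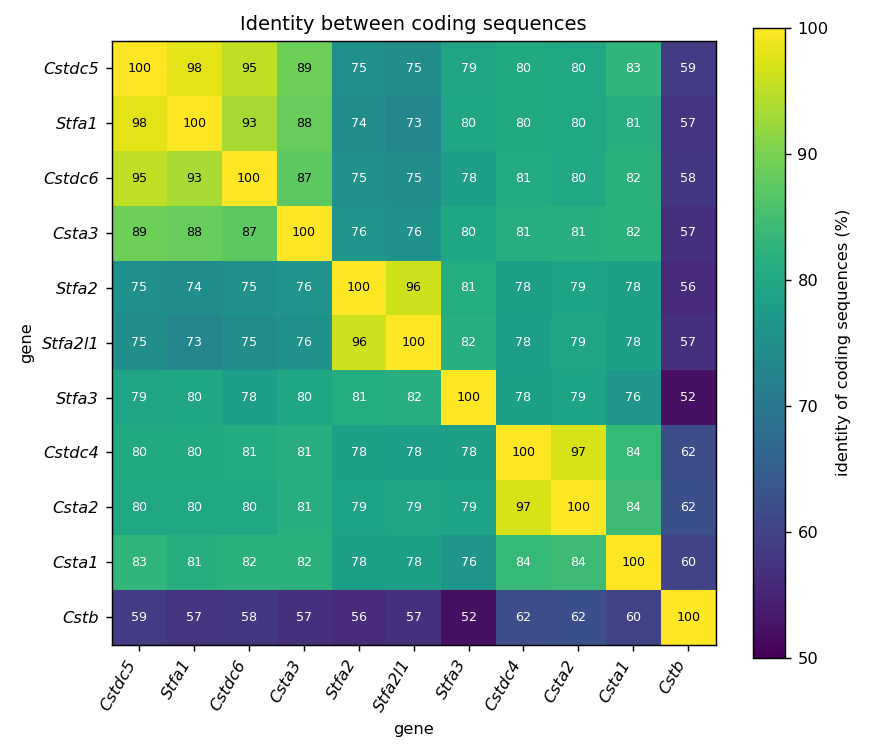
Identity between the coding sequences of the stefin A cluster genes and Cstb, in percent, with each gene on both axes and colour running from 50% to 100%. Cstdc5 with Stfa1 (97.9%), Stfa2 with Stfa2l1 (96.4%) and Cstdc4 with Csta2 (96.9%) form the closest blocks, and Cstb stands apart from all members at 52.1% to 61.7%.

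Each transcript was cut into overlapping windows of 50 bases, and a window was counted as shared when it lay within 2 mismatches of another gene of the cluster. Cstdc5 shared 85.1% of its windows with any gene of the cluster and 84.2% with Stfa1, and Stfa1 shared 84.5% of its own with Cstdc5. Cstdc4 shared 67.4% with Csta2 and none with a member. Stfa2l1 shared 65.9% with Stfa2, and Stfa2 shared 57.8% with Stfa2l1. Of the 6 members, Stfa3 shared the fewest, with 5.79% of its windows. Cstdc6, which is not a member, shared 70.4% of its windows with a member and 66.9% with Cstdc5. Reads of Stfa1 could therefore be listed under Cstdc5, and the levels of Stfa2 and Stfa2l1 cannot be fully told apart. The sequences are of the reference genome, not of ICR mice, and the study's methods name an aligner setting for reads that match several places but not how such reads were then counted for each gene.

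The promoters are shown because the measured members were high in the same mice. For all 6 genes the RefSeq promoter windows of GRCm38.p6 were available, and the 120 bases before each annotated start are printed 5′ to 3′ on the strand of the gene. The capitals mark GAGGAGGAG and TTTAAA, which were picked after the sequences had been read.
Stfa2l1 (chr16:36156691-36156810, plus strand): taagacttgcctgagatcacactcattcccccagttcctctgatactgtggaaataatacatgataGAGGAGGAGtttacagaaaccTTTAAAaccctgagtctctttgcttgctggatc
Cstdc4 (chr16:36184092-36184211, plus strand): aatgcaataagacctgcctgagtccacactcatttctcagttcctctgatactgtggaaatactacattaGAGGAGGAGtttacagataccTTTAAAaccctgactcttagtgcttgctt
Stfa1 (chr16:36277028-36277147, plus strand): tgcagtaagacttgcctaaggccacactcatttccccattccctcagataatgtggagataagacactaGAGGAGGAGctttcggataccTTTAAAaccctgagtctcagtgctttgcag
Cstdc5 (chr16:36367571-36367690, minus strand): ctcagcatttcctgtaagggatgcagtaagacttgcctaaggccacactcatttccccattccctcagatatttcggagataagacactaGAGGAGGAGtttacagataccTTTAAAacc
Stfa2 (chr16:36408364-36408483, minus strand): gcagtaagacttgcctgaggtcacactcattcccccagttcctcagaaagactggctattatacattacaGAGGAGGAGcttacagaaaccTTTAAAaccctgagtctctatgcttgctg
Stfa3 (chr16:36455393-36455512, minus strand): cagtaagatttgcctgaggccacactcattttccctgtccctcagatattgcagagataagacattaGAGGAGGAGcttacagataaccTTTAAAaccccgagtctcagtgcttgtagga

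Identity between these promoters was 54.8% to 84.6% over the 15 pairs, with a median of 77.2%. The lower values involved Cstdc5, whose annotated start lies nearer to the shared letters. TTTAAA began at base -29 to -33 relative to the start in 5 genes and at -9 in Cstdc5, and GAGGAGGAG began at -50 to -54 in the same 5 genes and at -30 in Cstdc5. The motif search covered longer windows than those printed, the 300 bases from 250 before to 50 after each start, on both strands. Over all 32851 promoter windows of that length, TTTAAA was found in 13.2% and GAGGAGGAG in 3.37%.

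Motifs of myeloid transcription factors were searched in the same 300-base windows. TTGCNNAA, a form bound by C/EBP factors, was found in Stfa1 and Cstdc5 (10.8% of all promoters). GAGGAA, the core bound by PU.1 and other ETS factors, was found in the windows of all 6 members (28.3% of all promoters), and within the printed bases of 3 of them (Stfa2, Stfa2l1 and Cstdc4, on the opposite strand), whereas the longer GAGGAAGT (3.20%) and the TATA-box form TATAAA (13.6%) were found in none. GAGGAA does not overlap the letters of GAGGAGGAG shown above, and a match in these letters is a description and not a binding site.

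Summed over the 5 measured genes, the level was 6.33, 9.83 and 9.99 RPKM in Con-sa mice 1 to 3, and 338, 94.5 and 26.2 RPKM in B-sa mice 1 to 3. The B+Con-FMT mice were at 9.64, 13.2 and 10.8 RPKM, and the B+A10-FMT mice at 10.4, 13.5 and 8.59 RPKM. All 3 B-sa spleens therefore lay above the other 9 spleens, and those 9 lay within 6.33 to 13.5 RPKM. The mean of Con-sa was 8.72 ± 2.07 RPKM and that of B-sa 153 ± 164 RPKM (SD, n = 3). With control content the mean was 11.2 ± 1.83 RPKM, and with A10 content it was 10.9 ± 2.49 RPKM (SD, n = 3). In B-sa the SD exceeded the mean, because mouse 1 carried 73.7% of the summed level of its group, mouse 2 20.6% and mouse 3 5.71%. The mean of B-sa was 17.6-fold that of Con-sa, while its lowest mouse stood 1.94-fold above the highest of the 9 other mice.

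**Figure D2:**
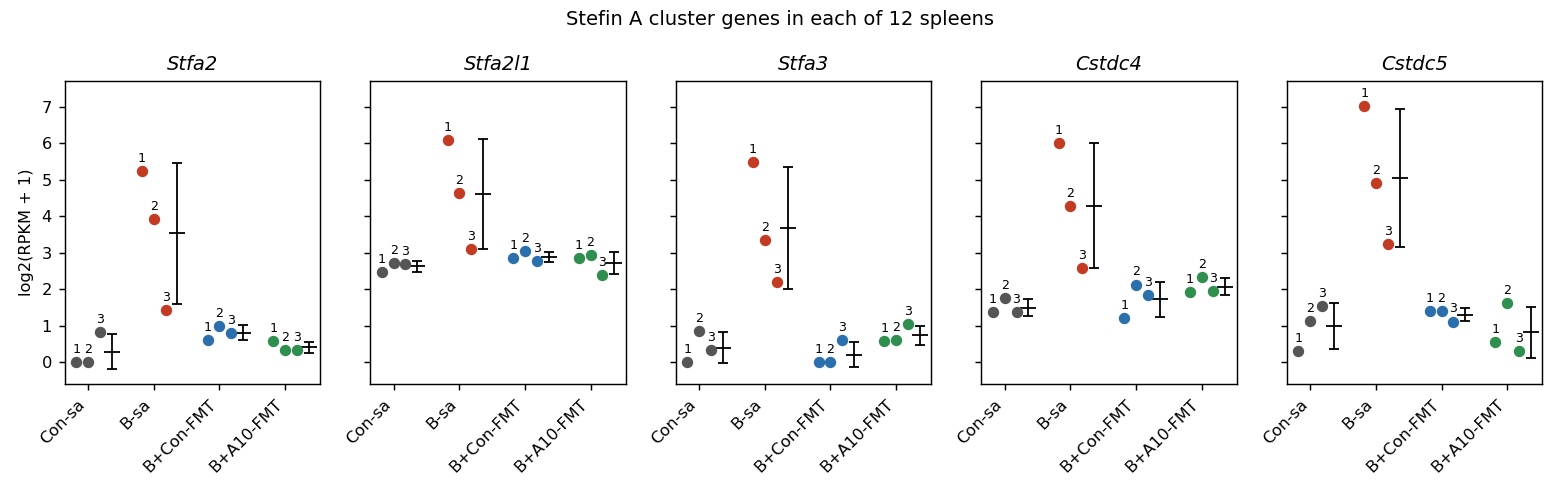
Level of each of the 5 measured genes in each spleen, as log2(RPKM + 1) on the y axis, by group on the x axis. Points are mice with their replicate numbers, and the bar beside each group is the mean ± SD (n = 3). In each panel the B-sa points stand in the order mouse 1, 2, 3 from high to low and above the other 9 mice, by 1.04-fold (Stfa2l1) to 4.07-fold (Cstdc5) for the lowest of them.

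Cstdc5 encodes a cystatin-domain protein and had the highest level of the 5 genes in each B-sa mouse. Its level was 128, 28.8 and 8.43 RPKM in the B-sa mice and 0.24, 1.18 and 1.89 RPKM in the Con-sa mice. The B+Con-FMT mice had 1.64, 1.63 and 1.16 RPKM, the B+A10-FMT mice 0.45, 2.07 and 0.24 RPKM. Each B-sa mouse was above every other mouse, and the lowest of them was 4.07-fold above the highest of the others. Cstdc5 made up 37.9%, 30.5% and 32.2% of the summed level in the B-sa mice, against 2.79% to 18.9% in the other 9.

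Cstdc4, a further cystatin-domain gene, was at 1.59, 2.36 and 1.57 RPKM in Con-sa and at 63.2, 18.3 and 5.02 RPKM in B-sa. The B+Con-FMT mice had 1.29, 3.36 and 2.54 RPKM, the B+A10-FMT mice 2.75, 4.07 and 2.87 RPKM. The B-sa mice did not overlap the others, although mouse 3 was 1.23-fold above B+A10-FMT mouse 2. The share of Cstdc4 in the summed level was steady over the B-sa mice, at 18.7%, 19.3% and 19.1%.

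Stfa2l1, the gene closest to Stfa2, had the highest level of the 5 genes in each spleen outside B-sa. The Con-sa mice had 4.50, 5.50 and 5.49 RPKM and the B-sa mice 66.9, 24.0 and 7.53 RPKM. The B+Con-FMT mice had 6.20, 7.23 and 5.85 RPKM, the B+A10-FMT mice 6.25, 6.62 and 4.18 RPKM. It made up 48.7% to 71.1% of the summed level outside B-sa and 19.8% to 28.7% in B-sa. B-sa mouse 3 was 1.04-fold above the highest of the 9 others, the narrowest gap among the 5 genes.

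Stfa2, which encodes stefin A2, was at 36.5, 14.3 and 1.70 RPKM in B-sa. In the other groups it was at 0, 0 and 0.78 RPKM (Con-sa), at 0.51, 1.0 and 0.75 RPKM (B+Con-FMT) and at 0.49, 0.25 and 0.25 RPKM (B+A10-FMT). B-sa mice 1 and 2 were far above the rest, and mouse 3 was 1.70-fold above the highest of the others. Stfa2 was the only member listed with 2 transcripts, and in the B-sa mice its level came wholly from the curated one, while the predicted one was listed at 0 in all 3. Outside B-sa the predicted transcript carried values up to 0.78 RPKM in 5 mice.

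Stfa3, which encodes stefin A3, was at 43.6, 9.08 and 3.54 RPKM in B-sa. It was at 0, 0.79 and 0.26 RPKM in the Con-sa mice, at 0, 0 and 0.51 RPKM with control content and at 0.50, 0.51 and 1.05 RPKM with A10 content. Mouse 3 of B-sa was 3.37-fold above the highest of the others. Since Stfa3 shared few windows with the rest of the cluster, its values depend least on how similar reads were divided.

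In the order of mean level within B-sa, Cstdc5 (55.2 ± 64.1 RPKM) stood above Stfa2l1 (32.8 ± 30.7), Cstdc4 (28.8 ± 30.5), Stfa3 (18.8 ± 21.7) and Stfa2 (17.5 ± 17.6; SD, n = 3 each), and no neighbours in that order differed beyond their spread. In Con-sa the order was Stfa2l1 (5.16 ± 0.57 RPKM), Cstdc4 (1.84 ± 0.45), Cstdc5 (1.10 ± 0.83), Stfa3 (0.35 ± 0.40) and Stfa2 (0.26 ± 0.45), and there Stfa2l1 stood above the rest in each of the 3 mice. The ratio of B-sa mouse 1 to mouse 3 ran from 8.89 (Stfa2l1) to 21.5 (Stfa2), so the members did not scale by 1 common factor.

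Each of the 5 genes was above all 9 other spleens in all 3 B-sa mice, which held for 1.37% of the 12671 genes tested, and each had the B-sa order 1, 2, 3 from high to low as well, which held for 0.268% of them. These levels chose the genes, so nothing is read from that count. Over the 12 mice the pairwise Pearson r of log2(RPKM + 1) between members was 0.93 to 0.98 (10 pairs). Over the 9 mice outside B-sa it was -0.36 to 0.72, with a median of 0.22, so the high values rest on the B-sa mice. These are descriptions: the points share libraries and the members share reads.

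The comparison of B-sa with Con-sa asks what busulfan alone changed. The fitted differences of mean log2(RPKM + 1) were 4.06 (SE 0.85) for Cstdc5, 3.27 (SE 0.71) for Stfa3, 3.25 (SE 0.80) for Stfa2, 2.79 (SE 0.72) for Cstdc4 and 1.99 (SE 0.62) for Stfa2l1. By size they ranked 3rd, 4th, 5th, 7th and 15th of the 12671 genes, against a median of -0.04 over all genes. At an adjusted p under 0.05 (limma, Benjamini-Hochberg over all genes tested), 4 of the 5 were called higher, where 4.73% of all genes were called higher, and Stfa2l1 was not called. Over all genes 599 were called higher and 1239 lower, and with median-of-ratios scaling 965 and 772, while the same number of members was called. The B-sa and Con-sa mice did not overlap for any of the 5, as held for 11.2% of all genes in that direction. Nothing is read from these counts, since the members were chosen with these values known. The calls turned on single mice: without B-sa mouse 2 none of the 5 was called, without mouse 3 all 5 were, and without mouse 1, the highest, the same 4 were called with differences of 1.93 to 3.08. They turned on the controls as well: none was called without Con-sa mouse 1 or 2, only 1 was without Con-sa mouse 3, and 3 or 4 were when any 1 of the FMT mice was left out. A fit of only these 2 groups ended all 4 calls (limma adjusted p of these 4 genes 0.110 to 0.162), and the replicate number as a block ended those of Stfa2 (adjusted p = 0.0572) and Cstdc4 (adjusted p = 0.0604). In bulk tissue, more cells of a type and more RNA per cell cannot be told apart.

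Compared to B-sa, the B+Con-FMT means differed by -3.75 (Cstdc5, SE 0.85), -3.47 (Stfa3, SE 0.71), -2.73 (Stfa2, SE 0.80), -2.57 (Cstdc4, SE 0.72) and -1.72 (Stfa2l1, SE 0.62) on the log2(RPKM + 1) scale. None of the 5 was called in the fit over all 12 mice, where 0.844% of all genes were called in either direction and 0.221% lower (79 genes higher and 28 lower, against 67 and 113 with equal totals outside the globin genes). The groups did not overlap for any member, as was the case for 9.05% of all genes in that direction. Without B-sa mouse 3, which had the lowest levels of its group, all 5 were called lower, and without B-sa mouse 1 Stfa3 and Cstdc5 were.

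Compared to B-sa, the B+A10-FMT means differed by -4.23 (Cstdc5, SE 0.85), -3.12 (Stfa2, SE 0.80), -2.93 (Stfa3, SE 0.71), -2.22 (Cstdc4, SE 0.72) and -1.89 (Stfa2l1, SE 0.62) on the same scale. Cstdc5 was called lower and the other 4 were not, where 5.27% of all genes were called in either direction and 1.27% lower (507 genes higher and 161 lower, against 282 and 349 with median-of-ratios scaling, under which 2 members were called). The groups did not overlap for any member (7.38% of all genes in that direction). Here too all 5 were called without B-sa mouse 3, none without B-sa mouse 2, and Stfa3 and Cstdc5 without B-sa mouse 1. The call of Cstdc5 was also lost without any 1 of the 3 B+A10-FMT mice, without Con-sa mouse 1 or 2 and without B+Con-FMT mouse 2, as well as with the replicate number as a block (limma adjusted p = 0.0632) and in a fit of only the 2 groups compared (adjusted p = 0.167). The 3 comparisons above share the B-sa mice and are not independent of each other.

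**Figure D3:**
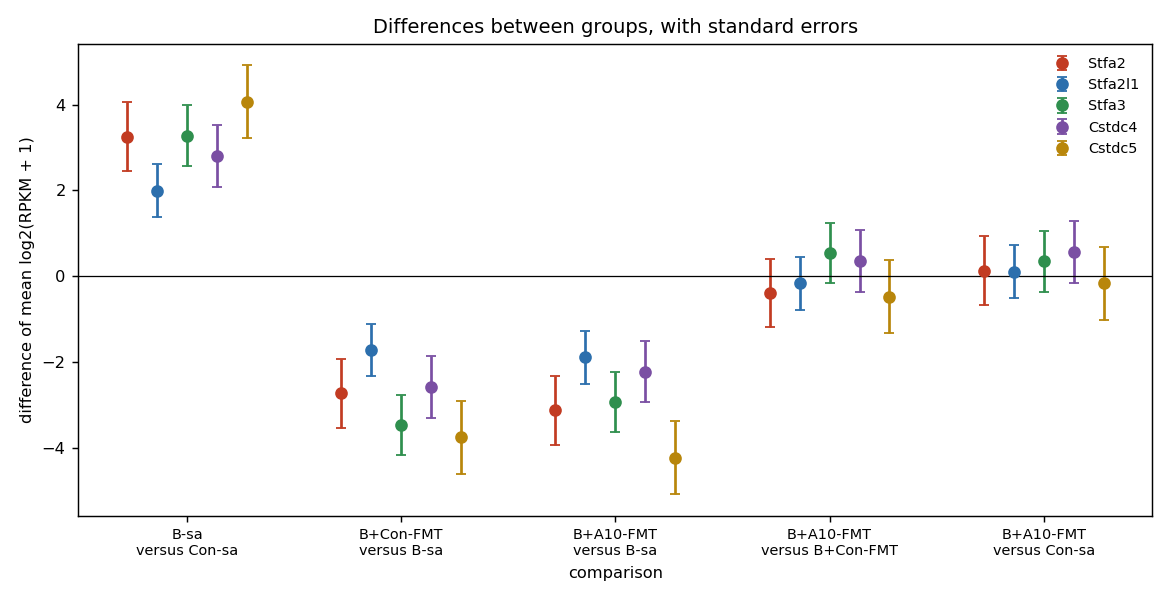
Fitted difference of mean log2(RPKM + 1) on the y axis for each of the 5 measured genes in the 5 comparisons on the x axis, with bars of 1 standard error. The values of B-sa versus Con-sa run from 1.99 to 4.06, those of the FMT groups versus B-sa from -4.23 to -1.72, and those of the comparisons without B-sa from -0.48 to 0.57.

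The comparison of B+A10-FMT with B+Con-FMT asks whether the donors' alginate oligosaccharide mattered, and its group means do not include the B-sa mice. The differences were 0.54 (Stfa3, SE 0.71), 0.35 (Cstdc4, SE 0.72), -0.17 (Stfa2l1, SE 0.62), -0.39 (Stfa2, SE 0.80) and -0.48 (Cstdc5, SE 0.85). No member was called, where 10.4% of all genes were called in either direction (960 higher and 352 lower, against 561 and 696 with median-of-ratios scaling and 2099 and 239 with equal totals outside the globin genes). The standard errors come from 1 spread shared by all 12 mice, to which the uneven B-sa mice contribute, and are not the spread of the FMT mice alone. Without B-sa mouse 1 the differences were the same and the lowest adjusted p of the 5 genes went from 0.648 to 0.276, and over all alternatives the adjusted p ran from 0.116 to 0.997 (limma). No equality is shown.

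Compared to Con-sa, B+A10-FMT differed by 0.57 (Cstdc4, SE 0.72), 0.35 (Stfa3, SE 0.71), 0.13 (Stfa2, SE 0.80), 0.10 (Stfa2l1, SE 0.62) and -0.17 (Cstdc5, SE 0.85). No member was called, where 0.410% of all genes were called, and these standard errors too are of the shared spread. Cstdc4 was above all 3 Con-sa mice in all 3 B+A10-FMT mice, at 2.75 RPKM or more against 2.36 RPKM or less, as held for 11.7% of all genes in that direction, and the other 4 genes overlapped between these groups. B+Con-FMT was not compared with Con-sa, so no difference from Con-sa is shown to be particular to A10 content.

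The other genes of the cluster were then read beside the members. Cstdc6, whose coding sequence was 95.2% identical to that of Cstdc5, was at 17.3, 3.56 and 1.96 RPKM in B-sa and at no more than 0.84 RPKM in the other 9 mice, the same order as the members. It passed the filter on low values through the 3 B-sa mice alone, so no test of it is given, and its values may include reads of Cstdc5. Csta3 was at 3.40, 0.45 and 0.45 RPKM and Csta2 at 1.91, 0.67 and 0.17 RPKM in B-sa. Their B-sa means of 1.43 and 0.92 RPKM were above the means of the other 3 groups (0.15 to 0.32 and 0.11 to 0.34 RPKM), their mice overlapped with those of other groups, and both stayed under the filter. Csta1, at the left end of the cluster, did not exceed 0.02 RPKM in any mouse.

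Cstb encodes stefin B, the widely expressed relative outside the cluster. It was at 71.2, 79.7 and 78.4 RPKM in Con-sa, at 81.0, 69.8 and 64.9 RPKM in B-sa, and at 60.6 to 68.5 RPKM in the 6 FMT mice. Cstb was called in none of the 5 comparisons (limma adjusted p 0.251 to 0.667), and its largest fitted difference was -0.21. Cstdc1 and Cstdc2, cystatin-domain genes of chromosome 2, did not exceed 0.15 RPKM.

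**Figure D4:**
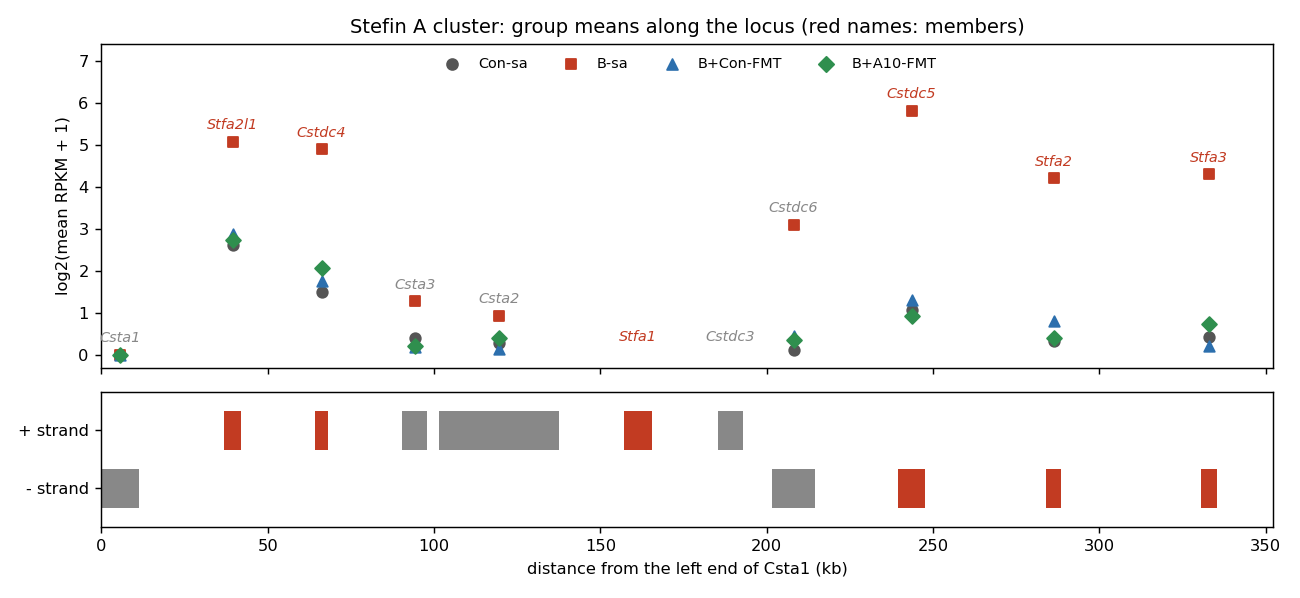
Group means along the cluster, as log2(mean RPKM + 1) on the upper y axis, with distance from the left end of Csta1 in kb on the x axis, and gene extents by strand in the lower panel. Members are in red and other cluster genes in grey, and Stfa1 and Cstdc3 have no values. The B-sa mean stands above the other 3 groups for the 5 members and Cstdc6 on both strands, and at a lower level for Csta2 and Csta3, while Csta1 at the left end is at 0.02 RPKM or less in each mouse.

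The cysteine cathepsins are the proteases that stefins block, and all 11 genes of the list, legumain included, were tested. In B-sa versus Con-sa, 1 of 11 was called, Ctsw (cathepsin W of cytotoxic lymphocytes), which fell by 0.56 (adjusted p = 0.0180), where 14.5% of all genes were called. The median difference of the list was -0.11, against -0.04 over all genes. Ctsb, the most abundant cathepsin gene in these spleens, was at 677, 707 and 716 RPKM in Con-sa and at 675, 782 and 741 RPKM in B-sa, and the groups overlapped. Compared to B-sa, A10 content went with a lower Ctsl level alone (-0.19, adjusted p = 0.0436), where 5.27% of all genes were called. Compared to control content, Ctsb (0.28, adjusted p = 0.0409), Ctso (0.41, adjusted p = 0.0194) and Ctsf (0.33, adjusted p = 0.0469) rose with A10 content, where 10.4% of all genes were called, and none was called in the other 2 comparisons. Of the secreted cystatins, 4 were tested and none was called, among them Cst3 (cystatin C), at 338 to 451 RPKM.

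Because the members are known as neutrophil genes, genes of neutrophil granules and mature neutrophils were set beside them. In B-sa versus Con-sa, 3 of 5 primary granule genes rose, namely Prtn3 (1.52, adjusted p = 0.0335), Ms4a3 (1.45, adjusted p = 0.0428) and Ctsg (1.44, adjusted p = 0.0450). Of 10 secondary granule genes, Camp (1.13, adjusted p = 0.0419), Cd177 (1.10, adjusted p = 0.0264) and Ltf (1.09, adjusted p = 0.0491) rose, and of 12 genes of mature neutrophils Wfdc21 (1.39, adjusted p = 0.0136) and Retnlg (0.84, adjusted p = 0.0423) did. Of all genes, 4.73% were called higher in that comparison. The medians of the 3 lists were 1.44, 1.02 and 0.66, against -0.04 over all genes. In the list of mature neutrophils 4 of 12 genes had differences below 0, Csf3r (-0.10), Trem1 (-0.11), Il1b (-0.21) and Padi4 (-0.25), none of them called. No gene of the 3 lists was called in the other 4 comparisons.

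Within B-sa the order of the mice differed between the members and the neutrophil genes Ngp, S100a8 and Mpo. Over all 12 mice the order was similar. The rank correlation (Spearman rho) with the summed members was 0.94 for Ngp, 0.90 for S100a8 and 0.89 for Mpo, given as a description. Ngp, a secondary granule gene, was at 702, 1016 and 600 RPKM in B-sa mice 1 to 3, and S100a8, a cytosolic protein gene of mature neutrophils, was at 1251, 1891 and 1173 RPKM. Mpo, the myeloperoxidase gene of primary granules, was at 70.6, 104 and 49.6 RPKM. Mouse 2 was thus the highest for these genes, while mouse 1 was the highest for each member. B+A10-FMT mouse 2 had the second highest Ngp level of all 12 mice, 891 RPKM, and a summed member level of 13.5 RPKM. Each of these 2 levels was the highest among the 9 mice outside B-sa.

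Expressed as a percentage of the Ngp level, the summed members were 48.2%, 9.30% and 4.37% in the B-sa mice and 1.52% to 2.74% in the other 9. The summed level of the 10 secondary granule genes was 1399 to 2360 RPKM in the B-sa mice and 796 to 845 RPKM in the Con-sa mice. With control content it was 926 to 1268 RPKM, with A10 content 803 to 1964 RPKM, which overlapped B-sa. The part of neutrophil number in the members' levels was not tested.

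**Figure D5:**
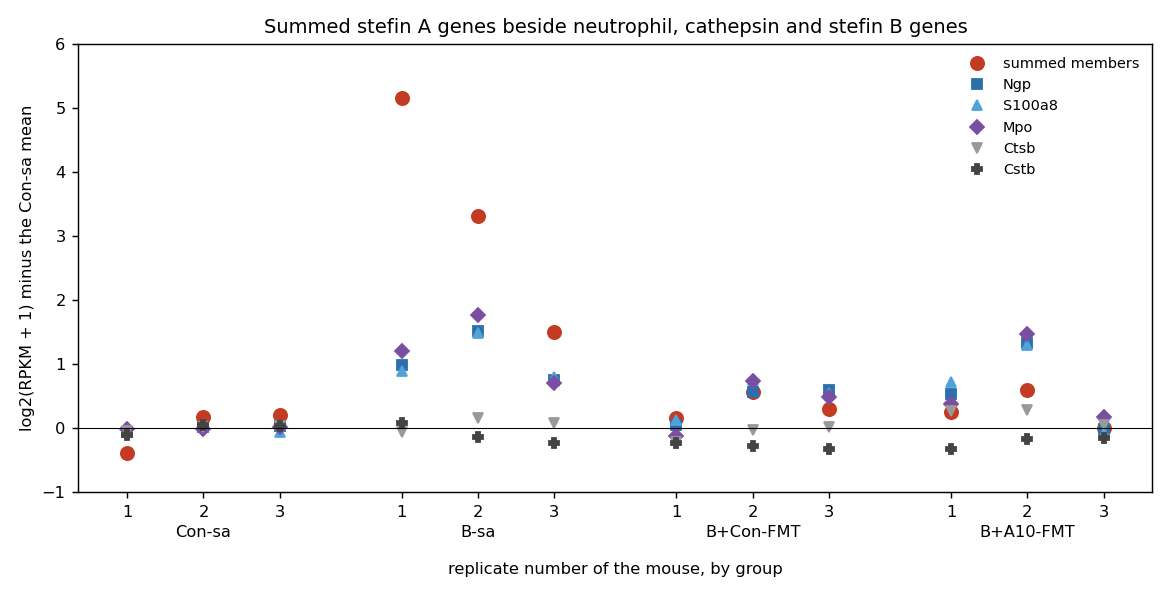
Summed members, the neutrophil genes Ngp, S100a8 and Mpo, the cathepsin gene Ctsb and the stefin B gene Cstb in each mouse, as log2(RPKM + 1) minus the Con-sa mean on the y axis, with the mice by group on the x axis. The summed members peak in B-sa mouse 1 (338 RPKM) and the neutrophil genes in B-sa mouse 2. In B+A10-FMT mouse 2 Ngp is at 891 RPKM and the summed members are at 13.5 RPKM, each the highest among the 9 mice outside B-sa.

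Other myeloid lists and the keratinocyte list were read in the same way. Of 8 myeloid transcription factor genes, Irf8 (-0.33, adjusted p = 0.0229) fell with busulfan alone, where 14.5% of all genes were called, and Klf4 (0.42, adjusted p = 0.0105) rose with A10 content compared to control content, where 10.4% were. Spi1, which encodes PU.1, was at 58.3 to 71.8 RPKM in all mice and was called in no comparison. Of 7 monocyte genes, none was called in B-sa versus Con-sa, Csf1r (0.46, adjusted p = 0.0414) rose with A10 content compared to B-sa, where 5.27% of all genes were called, and 4 rose with A10 compared to control content (Ccr2, Csf1r, Cx3cr1 and Fn1). In this last comparison 4 of 7 red pulp macrophage genes were called higher as well, where 10.4% of all genes were called. Of 7 eosinophil genes, Epx (0.66, adjusted p = 0.0229) rose in B-sa versus Con-sa, where 4.73% of all genes were called higher, and Ccr3 (0.47, adjusted p = 0.0487) rose with A10 content compared to B-sa, while with A10 compared to control content Ccr3 rose and Epx, Prg2 and Prg3 fell, and of 4 basophil and mast cell genes none was called in any comparison.

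Stefin A is also a skin protein, and keratinocyte genes were near 0. The 7 of the 8 listed that were in the tables summed to 1.0 to 2.6 RPKM per mouse, with 1.26 RPKM in B-sa mouse 1, where the members were highest, and only Sbsn, a suprabasal epidermis gene, passed the filter.

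The genes whose pattern was most like that of the summed members were ranked by Pearson r of log2(RPKM + 1) over the 12 mice, with the members left out. The highest was Cstdc6 (r = 0.96), whose sequence is largely shared with Cstdc5, followed by Pa2g4 (0.94), Rpp30 (0.93), Gk (0.92), Lyz1 (0.92), Atp5j (0.90), Stra6 (0.90), Elovl1 (0.90), Cd63 (0.88) and Lrp8 (0.88). The changes of most of these genes were small: Pa2g4 was at 105 to 108 RPKM in Con-sa and at 126, 117 and 112 RPKM in B-sa. Lyz1, a lysozyme gene, was at 110, 122 and 116 RPKM in Con-sa and at 187, 146 and 123 RPKM in B-sa, in the order of the members.

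After group means were subtracted, the most alike were Ldha (r = 0.97), Rmnd1 (0.97), Psme1 (0.96), Lyz1 (0.96), Hs3st3a1 (0.96), Xrcc1 (0.96), Cd63 (0.94), Csf2rb2 (0.94), Gtf3a (0.94) and Nostrin (0.94). The members varied most among the B-sa mice, so those mice weigh most in this ranking. Lyz1 and Cd63, which encodes a tetraspanin of granule and endosome membranes, were the genes found in both lists of 10. Unlike the members, neither stood above the other groups in B-sa mouse 3. There Cd63 was at 77.8 RPKM, the lowest of the 12 mice. Lyz1 was at 123 RPKM there, against 110 to 125 RPKM with control content and 124 to 136 RPKM with A10 content. Among the neutrophil genes the highest r over the 12 mice was that of Cebpe (0.78), a transcription factor gene of granule formation, and Ngp had 0.67. By rank the picture differed. Spearman rho over the 12 mice was 0.94 for Ngp and Camp and 0.90 for S100a8, against 0.70 for Cstdc6 and 0.71 for Pa2g4. Other genes of mature neutrophils were not alike by rank, such as Csf3r (0.13), Il1b (-0.14) and Trem1 (-0.21). These likenesses are descriptions over libraries that share groups, and no p is given for them.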

How the data were processed

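Spleen RNA of 12 mice was measured, and groups and replicate numbers were taken from the labels. The authors enriched mRNA, sequenced it, mapped reads to reference genes and deposited RPKM values, listed by RefSeq transcript in a separate table for each mouse. The study's methods name SOAPaligner 2.20 with at most 2 mismatches, and the submitters' processing notes name HISAT, Bowtie2 and mm10, so the mapper of these values is uncertain. The deposited values hold no read counts, hence no counting intervals are given, and the value of 1 read, estimated from 12177 low transcripts, differed by at most 1.04-fold between mice. No column of another sample was present.

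RPKM were summed over the transcripts of each Entrez gene (60654 transcripts, 18221 genes), and 18101 genes were named from the reference tables. A gene was tested where 3 mice or more had 1 RPKM or more (12671 genes). The tool was limma 3.58.1 (R 4.3.3, with its trend and robust options) on the log2(RPKM + 1) scale, in a single fit of the 12 mice by group, for 5 comparisons, with two-sided p-values adjusted by Benjamini-Hochberg. Fold changes on this scale understate the change of low genes. Whether mice of a group shared a cage is not given in the sources used here. The p-values rest on the spread between mice within groups, pooled over the 4 groups of 3 mice. The script was tested on simulated data.

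The genes described, the gene lists and the motifs were chosen with earlier results of these data known. Named genes are the members, the other type 1 cystatins, up to 3 genes of highest mean level per list, list genes called where 4 or fewer of the list were called, and the 10 genes most alike by each ranking. Cebpe, Csf3r, Trem1, Il1b and Padi4 were named after their values were seen. Lists of cells unrelated to the members are given as sums and counts, apart from the globin genes named. Same-numbered mice of 2 groups are different animals whose deviations from group means correlated at -0.37 to 0.19 over genes, so the numbers were not used as pairs. Alternatives were a pseudocount of 0.1, no filter, 2 other scalings, the replicate number as a block, only the 2 groups compared, 1 transcript per gene and leaving out each mouse. Sequences came from GENCODE M21 and RefSeq (GRCm38.p6) and were aligned with Biopython 1.88 in Python 3.11.15. Protein sequences were not used here.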

Additional observations from a re-analysis of the deposited data

How the results depend on the processing

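Under all 19 alternatives, the fitted difference of each of the 5 measured members was above 0 for B-sa versus Con-sa and below 0 for both FMT groups versus B-sa. Counts of calls did change. In B-sa versus Con-sa, where 4 of 5 members and 1838 genes were called, only the 2 groups compared gave 0 members and 972 genes, the replicate block gave 2 members (Stfa3 and Cstdc5), the transcript of highest mean RPKM gave 547 genes, and leaving out 1 mouse gave 0 to 5 members and 510 to 2100 genes. In B+Con-FMT versus B-sa (0 members, 107 genes), a pseudocount of 0.1 gave 1 member, no filter gave 71 genes, equal totals outside the globin genes 180, only the 2 groups compared 32, the highest transcript 23, and leaving out 1 mouse 0 to 5 members and 19 to 468 genes. For B+A10-FMT against B-sa (1 member, 668 genes), median-of-ratios scaling and equal totals outside the globin genes each gave 2 members, the replicate block gave 0 members and 417 genes, only the 2 groups compared 0 members and 158 genes, the highest transcript 111 genes, and leaving out 1 mouse 0 to 5 members and 106 to 833 genes. For the FMT groups against each other (1312 genes), equal totals outside the globin genes gave 2338 genes, the highest transcript 315, and leaving out 1 mouse 222 to 1559. For B+A10-FMT against Con-sa (52 genes), the highest transcript gave 1 gene and leaving out 1 mouse 1 to 75. No member was called in these last 2 comparisons under any alternative. Fits of 2 groups and of fewer mice have fewer samples behind them, and otherwise the cause was not tested.

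What the replicate numbers mark is not given in the sources used here, and same-numbered mice correlated at -0.37 to 0.19, so the block is no test of pairing. The B-sa replicates are few and uneven, similar reads may be divided among members and Stfa1, and values under about 1 RPKM rest on few reads. The depth that a difference among the 9 mice outside B-sa would need was not measured.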
